A study of Mus musculus with 8 samples.

Results

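Skeletal muscle contractile, calcium handling and energy genes were examined in bulk RNA-seq of 4T1 tumors, comparing saline controls with tumors treated with mAb-DXd/IMQ. The members were 34 genes picked by name for their role in muscle, and all 34 were found among the 54532 genes of the count table. 4T1 is a triple-negative mammary carcinoma line from BALB/c mice, and here it carried firefly luciferase (4T1-FLuc) and grew under the skin of female BALB/cJ mice injected at 6 weeks of age. Each group held 4 tumors, harvested at the study endpoint. The saline group is called PBS control in some labels. The treated mice received 16 mg per kg of mAb-DXd/IMQ, a humanized anti-CD276 antibody carrying the topoisomerase I inhibitor DXd and the imidazoquinoline IMQ, an agonist of Toll-like receptors, through the tail vein every 4 days for 5 courses. Total counts were 49398150, 45019927, 56388627 and 69582375 in saline tumors 1 to 4, and 51625237, 46196237, 42965317 and 34591912 in mAb-DXd/IMQ tumors 1 to 4 (two-sided exact permutation test of the group means, p = 0.171, where 0.0286 is the smallest p that 4 against 4 tumors allow). Levels are given as CPM, counts scaled to a common library size, after TMM normalization, which corrects each library by a trimmed mean of its gene ratios, and 3 counts corresponded to between 0.0431 and 0.0867 CPM by library size, covering counting error only.

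Skeletal muscle fibres contract when thick filaments of myosin pull on thin filaments of actin, troponin and tropomyosin within the sarcomere, the repeating unit bounded by Z-discs and spanned by titin. Calcium released through the ryanodine receptor starts contraction, and a pump returns it to the sarcoplasmic reticulum. Fast and slow fibres use different isoforms of most of these proteins, and much of the body musculature of the mouse, including the thin sheet beneath the skin, is fast.

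None of the 29 tested muscle genes passed the edgeR thresholds between the groups, and for their summed level the spread between tumors of the same group exceeded the difference between group means. The summed level of the 34 members was 886, 107, 705 and 445 CPM in saline tumors 1 to 4. In mAb-DXd/IMQ tumors 1 to 4 it was 751, 236, 520.3 and 609 CPM. Saline tumor 2 was lowest and mAb-DXd/IMQ tumor 2 next lowest, well below the other 6, while the highest level was in saline tumor 1, so the groups overlapped throughout. The means were 536 ± 338 CPM for saline and 529 ± 217 CPM for treatment (± SD, n = 4 each), a log2 ratio of -0.02, and the saline tumors alone spanned 8.26-fold against 3.18-fold in the treated group. These genes took between 0.0106% and 0.0884% of a tumor's counts. In bulk RNA a difference in the number of muscle fibres and a difference in RNA per fibre cannot be told apart. Without saline tumor 2 the log2 ratio of the group means was -0.36, without mAb-DXd/IMQ tumor 2 it was 0.23, and without both, a choice made after the values were seen, it was -0.12.

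**Figure D1:**
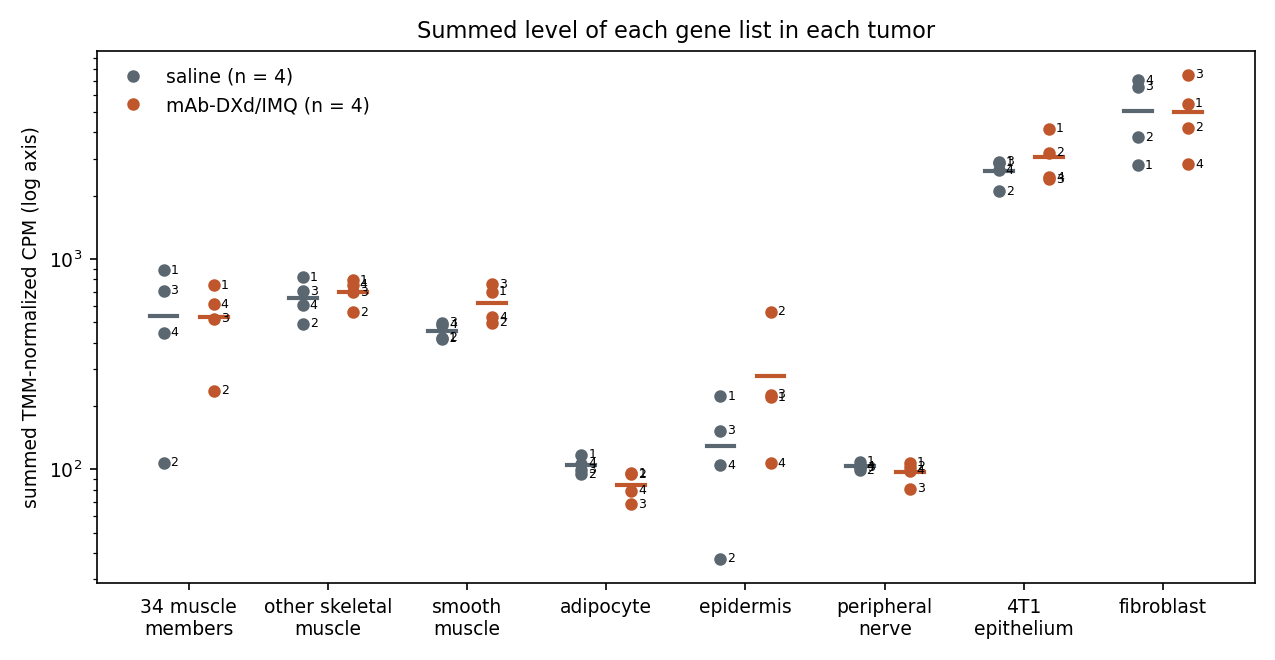
Summed TMM-normalized CPM (log axis) of each gene list (horizontal axis) in the 4 saline and 4 mAb-DXd/IMQ tumors, with the tumor number beside each point and bars at the group means. The 34 muscle members range from 107 CPM in saline tumor 2 to 886 CPM in saline tumor 1, and the groups overlap.

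The low-count filter kept 29 of the 34 members, and the other members, Myh7, Myl2, Myl3, Tnnc2 and Myod1, had at most 35 counts in any tumor. Among the 29, 0 were called higher and 0 lower by edgeR (FDR under 0.05, and a log2 fold change beyond 0.58 either way), against 0.546% and 0.519% of the 18511 genes tested (1.06% in either direction). Of all tested genes, 101 of the 197 calls were in the higher direction, and 145 of 218 with upper quartile factors. At an unadjusted p under 0.05, 2 members, Tnnt1 and Myog, stood out, against 18.9% of all genes. DESeq2 called 1 member, Tnnt1, beside 787 of all 18511 genes tested, and limma-voom called 0 members, beside 174 of all genes. The median log2 fold change of the 29 was 0.12 beside 0.02 for all tested genes, and 16 were positive and 13 negative, with the extremes at Ckm (-0.88) and Myog (1.55). That median was -0.18 without saline tumor 2, 0.27 without mAb-DXd/IMQ tumor 2 and 0.04 without both, and no member was called in any of these fits. Values of the groups were fully separate for 2 of the 29, both higher in mAb-DXd/IMQ tumors, against 5.97% of all genes, and for 0 lower, against 7.10%.

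Most members varied together over the 8 tumors: for 20 of the 29, log2 CPM had a Pearson r above 0.9 with the log2 sum of the other members. How closely the members followed each other without the tumors numbered 2 was not measured. Saline tumor 2 held the lowest of the 8 values for 24 of the 29, against 14.4% of all tested genes, and for 24 of the 29 the 2 lowest values were in saline tumor 2 and mAb-DXd/IMQ tumor 2, against 1.76% of all tested genes. The median SD of log2 CPM over the 8 tumors was 1.16 for the members and 0.32 for all tested genes, and 21 of the 29 lay above the 90th percentile of all genes (0.88). The members outside that pattern of 2 lowest tumors were Tnnt1, Tnni1, Tnnc1, Tnni2 and Myog. Saline tumor 2 had the lowest total count and the fewest detected genes (23645) of the saline tumors, while mAb-DXd/IMQ tumor 2 had neither in its group, and the part of depth in these levels was not tested.

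**Figure D2:**
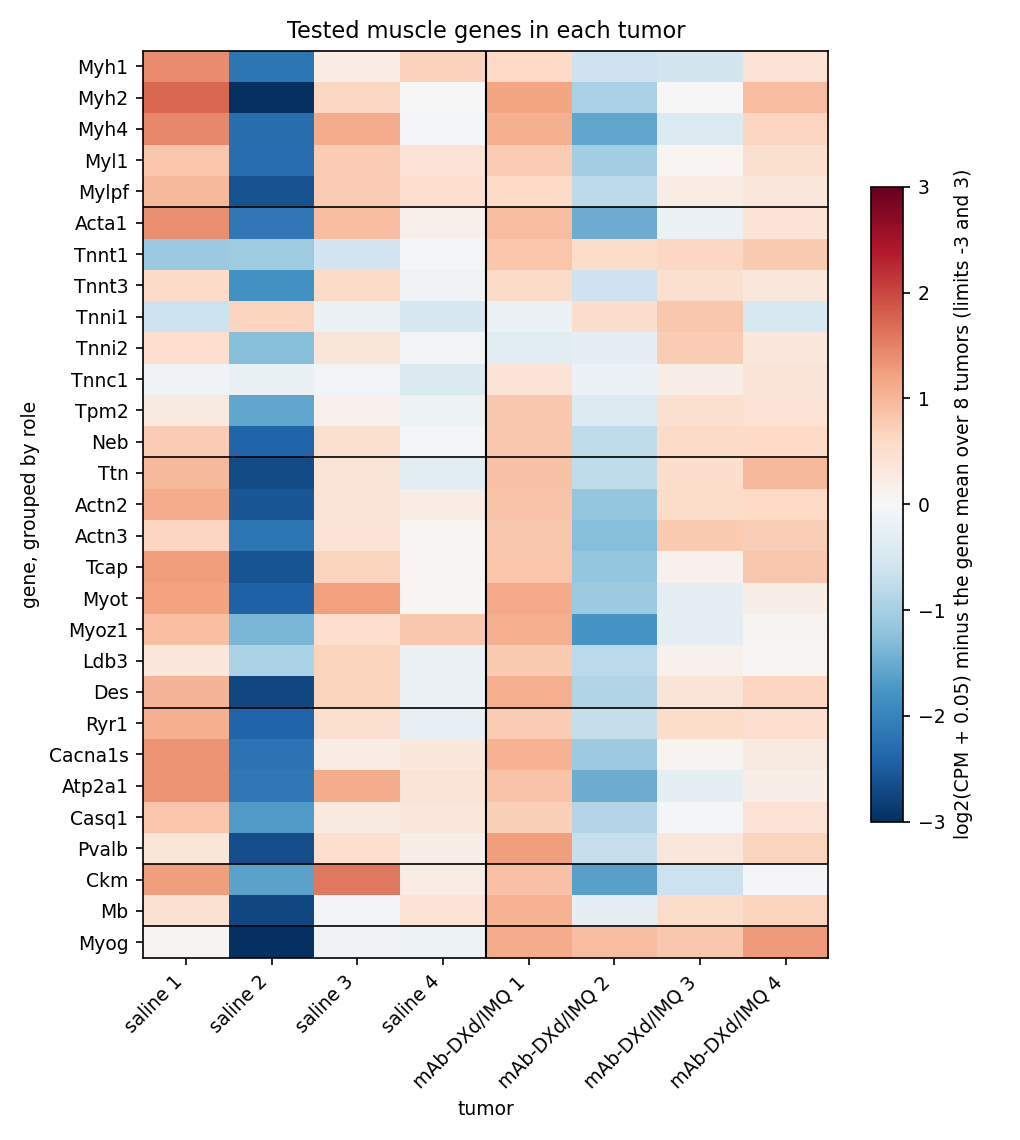
Level of each of the 29 tested muscle genes (rows, grouped by role) in each tumor (columns), as log2(CPM + 0.05) minus the gene's mean over the 8 tumors. Saline tumor 2 is blue in most rows and mAb-DXd/IMQ tumor 2 is paler blue, while the rows of Tnnt1, Tnni1, Tnnc1, Tnni2 and Myog do not have those 2 tumors lowest.

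Promoter sequences were matched for 26 of the 34 members (RefSeq, GRCm38.p6), and none was matched for Tnnt3, Tnni2, Neb, Actn3, Tcap, Myot, Myoz1 and Myod1. The 250 bases before the start of transcription are shown for Acta1, Myh4, Atp2a1 and Ckm, abundant members whose 2 lowest tumors were those numbered 2, and for Tnnt1 and Myog, the members at an unadjusted p under 0.05. They lie, in 5′ to 3′ order along each gene, at the following positions: Acta1 at chr8:123894776-123895025 (minus strand), Myh4 at chr11:67237562-67237811 (plus strand), Atp2a1 at chr7:126463074-126463323 (minus strand), Ckm at chr7:19410844-19411093 (plus strand), Tnnt1 at chr7:4515976-4516225 (minus strand) and Myog at chr1:134289754-134290003 (plus strand). Capitals mark the E-box form CAGCTG, the MCAT element CATTCC, the CArG box and the MEF2 box, each searched on both strands.
Acta1: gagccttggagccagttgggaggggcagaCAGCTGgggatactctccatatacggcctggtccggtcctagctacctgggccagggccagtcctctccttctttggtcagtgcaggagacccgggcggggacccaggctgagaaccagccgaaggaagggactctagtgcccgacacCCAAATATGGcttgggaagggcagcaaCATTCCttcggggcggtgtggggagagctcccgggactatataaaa
Myh4: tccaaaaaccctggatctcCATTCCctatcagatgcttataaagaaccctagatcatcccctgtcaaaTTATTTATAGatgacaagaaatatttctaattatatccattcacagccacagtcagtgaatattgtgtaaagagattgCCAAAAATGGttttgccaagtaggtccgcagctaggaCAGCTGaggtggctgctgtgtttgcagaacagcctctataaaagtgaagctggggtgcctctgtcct
Atp2a1: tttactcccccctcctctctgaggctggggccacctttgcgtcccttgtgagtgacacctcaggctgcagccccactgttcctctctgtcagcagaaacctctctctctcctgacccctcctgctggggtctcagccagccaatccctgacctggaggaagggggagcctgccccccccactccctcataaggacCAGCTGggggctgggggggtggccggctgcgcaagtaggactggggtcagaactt
Ckm: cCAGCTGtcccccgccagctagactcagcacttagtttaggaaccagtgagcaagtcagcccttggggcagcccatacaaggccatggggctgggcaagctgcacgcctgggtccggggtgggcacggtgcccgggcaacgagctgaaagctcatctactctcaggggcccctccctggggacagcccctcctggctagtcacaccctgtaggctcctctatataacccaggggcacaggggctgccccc
Tnnt1: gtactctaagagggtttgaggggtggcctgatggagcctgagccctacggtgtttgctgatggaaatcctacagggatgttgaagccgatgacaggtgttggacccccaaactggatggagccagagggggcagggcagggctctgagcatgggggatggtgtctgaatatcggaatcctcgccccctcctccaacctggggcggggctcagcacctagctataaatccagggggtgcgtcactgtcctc
Myog: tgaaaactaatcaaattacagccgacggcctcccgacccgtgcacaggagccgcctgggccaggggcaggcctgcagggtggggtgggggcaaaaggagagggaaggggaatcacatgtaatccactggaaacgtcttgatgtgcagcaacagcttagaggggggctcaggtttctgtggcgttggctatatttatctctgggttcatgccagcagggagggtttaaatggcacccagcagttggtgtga
CAGCTG is bound by myogenic factors among other proteins, CATTCC by TEAD factors, the CArG box by serum response factor and the MEF2 box by MEF2 factors. CAGCTG was in the window of 13 of the 26 members, and 13% of all 32851 promoters held it over the same length. CATTCC was in 8 of the 26 (12.6% of all promoters), the CArG box in 4 (1.47%) and the MEF2 box in 4 (2.92%). The TATA box letters TATAAA were in 6 of the 26 and in 12.4% of all promoters. The looser E-box CANNTG, which takes in CAGCTG, was in 22 of the 26 and in 66.2% of all promoters. Myh4 held all 4 marked motifs, and no exact match to these 4 patterns was in the Tnnt1 and Myog windows. Sequences that miss a pattern by a base were not counted, so the absence of a match says nothing about binding. A member with several listed promoters was counted once, if any of them held the letters, and a match describes the letters alone.

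Myosin forms the thick filament, with heavy chains as the motor and light chains bound at the neck. Myh4, the fast type 2B heavy chain, was at 115, 8.76, 90.5 and 40.96 CPM in saline tumors 1 to 4. In the treated tumors Myh4 was at 87.8, 14.3, 31.6 and 65.6 CPM (log2 fold change -0.36 ± 0.67 (SE), edgeR adjusted p = 0.820). Both tumors numbered 2 were low, and the groups overlapped. Mylpf, the fast regulatory light chain, was at 18.9, 1.51, 16.2 and 13.5 CPM in saline tumors and at 14.4, 5.48, 11.2 and 12.1 CPM in mAb-DXd/IMQ tumors (log2 fold change -0.22 ± 0.56 (SE), edgeR adjusted p = 0.875), with the same tumors low and the groups overlapping. Myh1, the type 2X heavy chain, ranged from 1.69 to 20.9 CPM over the 8 tumors, Myh2, the type 2A heavy chain, from 0.226 to 10.1 CPM, and Myl1, the fast essential light chain, from 1.92 to 17.1 CPM. All 5 tested genes of the thick filament had their lowest value in saline tumor 2 and their next lowest in mAb-DXd/IMQ tumor 2, and all 5 had a log2 fold change below 0, from -0.44 for Myh1 to -0.06 for Myh2, with adjusted p of 0.720 or more. That direction depended on single tumors and on the fit: all 5 were positive without saline tumor 1, 3 of the 5 without mAb-DXd/IMQ tumor 2, and 1 of the 5 without saline tumor 3 or without mAb-DXd/IMQ tumor 3. With limma-voom 3 of the 5 were positive, with gene length offsets 1, and with the muscle level as a covariate 1. All 5 were negative with the other library scaling factors tried.

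The slow heavy chain and the slow light chains were close to undetected. Myh7, the slow heavy chain shared with the heart, had 1 count in saline tumor 2, 1 in mAb-DXd/IMQ tumor 2 and 0 in the other 6 tumors. Myl3, the slow essential light chain, had at most 2 counts, and Myl2, the slow regulatory light chain, at most 10 counts. By CPM per kilobase of gene length, Myh4 made up from 70.1% to 87.8% of the summed Myh4, Myh1, Myh2 and Myh7 level, Myh1 from 8.32% to 23.6% and Myh2 from 1.8% to 6.57%. The order Myh4, Myh1, Myh2 held in all 8 tumors, including saline tumor 2, where total muscle level was lowest. Of all 100-base windows of their transcripts, 9.2% of those of Myh1, 7.8% of Myh2 and 3.9% of Myh4 also occurred in another myosin heavy chain, so their counts carry that uncertainty, while Acta1, Tpm2 and the troponins shared 0.0% with their families.

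**Figure D3:**
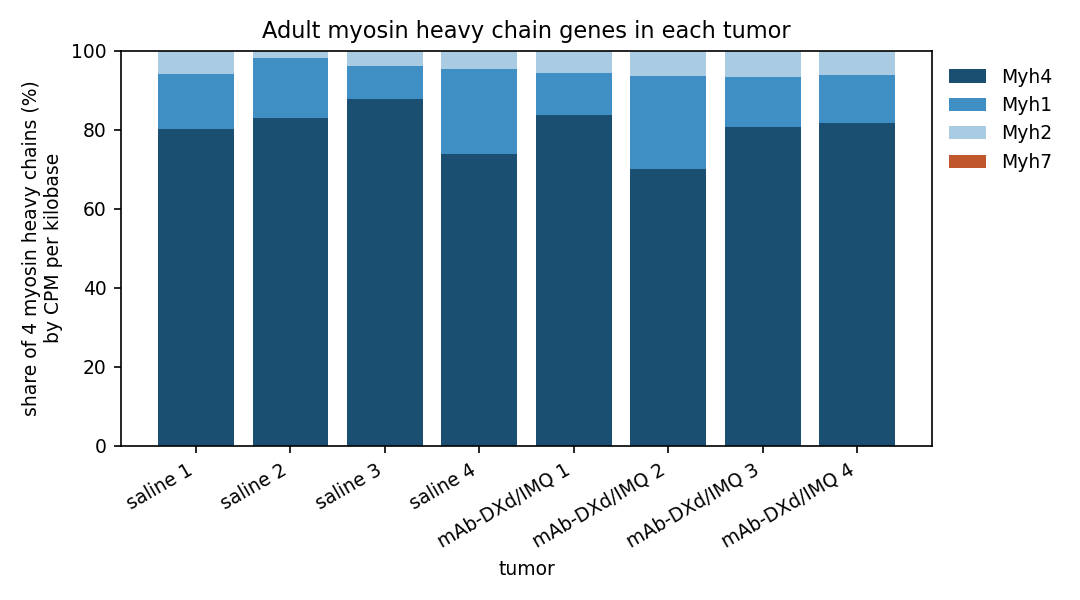
Share of the summed level of 4 adult myosin heavy chain genes, by CPM per kilobase (vertical axis, percent), in each tumor (horizontal axis). Myh4 takes 70.1% to 87.8% in the 8 tumors, and Myh7 is too small to see.

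Thin filament genes included the 3 members with the highest CPM per kilobase, Acta1, Tnni2 and Tnnt3. Acta1, skeletal muscle actin, was at 196, 16.8, 142 and 82.9 CPM in saline tumors 1 to 4. In mAb-DXd/IMQ tumors Acta1 was at 140.5, 26.7, 65.9 and 98.3 CPM (log2 fold change -0.40 ± 0.62 (SE), edgeR adjusted p = 0.774). It was the most abundant member, at 62.6 CPM per kilobase averaged over the 8 tumors, and its low tumors were again those numbered 2. Tnni2, the fast inhibitory troponin subunit, was at 71.3, 20.7, 64.2 and 47.5 CPM in saline tumors. In mAb-DXd/IMQ tumors it was at 39.4, 41.8, 84.5 and 62.2 CPM (log2 fold change 0.16 ± 0.35 (SE), edgeR adjusted p = 0.847). Tnni2 was also lowest in saline tumor 2, and its 8 tumors spanned 4.08-fold, compared with 11.7-fold for Acta1, and its next lowest tumor was mAb-DXd/IMQ tumor 1, with tumor 2 of that group close to it. Tnnt3, the fast subunit that binds tropomyosin, ranged from 7.81 to 41.6 CPM, and Neb, which runs along the thin filament, from 3.05 to 28.6 CPM, both lowest in saline tumor 2. Tpm2, a tropomyosin of skeletal and smooth muscle, was at 43.8, 12.3, 39.3 and 32.4 CPM in saline tumors and at 63.1, 27.2, 50.4 and 48.5 CPM in mAb-DXd/IMQ tumors (log2 fold change 0.57 ± 0.35 (SE), edgeR adjusted p = 0.411), overlapping between the groups.

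The slow troponins did not follow the fast ones. Tnnt1, the slow tropomyosin-binding subunit, described in full here because of its values after they were seen, was at 0.304, 0.316, 0.466 and 0.688 CPM in saline tumors 1 to 4. In mAb-DXd/IMQ tumors it was at 1.32, 1.07, 1.14 and 1.26 CPM. Every treated tumor was above every saline tumor, and saline tumor 2 was not set apart. Group levels were 0.443 ± 0.179 CPM for saline and 1.20 ± 0.115 CPM for treatment (mean ± SD, n = 4 each), a log2 fold change of 1.42 ± 0.37 (SE) with an edgeR adjusted p of 0.077, which missed the threshold. DESeq2 gave an adjusted p of 0.012, and over all alternatives the adjusted p ran from 0.012 to 0.240 with the log2 fold change between 1.27 and 1.72. Counts behind Tnnt1 were low, from 14 to 64 per tumor. Tnnc1, the calcium-binding subunit of slow and cardiac muscle, ranged from 1.68 to 3.09 CPM (log2 fold change 0.44 ± 0.24, SE) and Tnni1, the slow inhibitory subunit, from 0.446 to 1.31 CPM, highest in mAb-DXd/IMQ tumor 3 and next highest in saline tumor 2.

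Tnnc2, the fast calcium-binding troponin subunit, had 0 counts in all 8 tumors, although its partners Tnni2 and Tnnt3 averaged 36.04 and 19.7 CPM per kilobase. In the annotation, 592 of the 800 exonic bases of Tnnc2 (74.0%) overlap Ube2c, a ubiquitin-conjugating enzyme gene on the opposite strand, which was at 42.3 to 95.1 CPM. Whether the counting used strand, and how it treated reads over shared bases, is not given in the sources used here, and the part of this overlap in the 0 was not tested. Of the other members, Mb shared 27.6% and Atp2a1 21.9% of their exonic bases with an opposite-strand gene, Cacna1s 20% and Ckm 15.5%, so their counts carry the same uncertainty. The partner of Atp2a1, Rabep2, averaged 21.5 CPM, and the partners with those shares of Mb, Cacna1s and Ckm averaged 0.03, 0.00 and 0.09 CPM. Mb also shared 4.3% of its bases with Apol6, at 75.8 CPM.

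The Z-disc anchors thin filaments, titin tethers the thick filament to it, and desmin links neighbouring myofibrils. Des, the desmin gene, which smooth muscle also expresses, was at 107, 7.81, 82.98 and 46.6 CPM in saline tumors and at 112, 28.2, 68.6 and 82.6 CPM in mAb-DXd/IMQ tumors (log2 fold change 0.25 ± 0.60 (SE), edgeR adjusted p = 0.864). Ttn, the titin gene, was at 33.4, 2.62, 22.2 and 13.7 CPM in saline tumors and at 31.02, 10.1, 24.5 and 33.3 CPM in mAb-DXd/IMQ tumors (log2 fold change 0.46 ± 0.58 (SE), edgeR adjusted p = 0.715). For both genes the tumors numbered 2 were lowest and the groups overlapped. Per kilobase Ttn averaged 0.183 CPM, with a listed length of 116825 bases, against 17.8 for Des. The alpha-actinins Actn2 and Actn3 ranged from 0.677 to 9.33 and from 1.92 to 15.6 CPM. Tcap, which caps titin at the Z-disc, ranged from 0.812 to 12.3 CPM, Myot (myotilin) from 0.226 to 3.40, Myoz1 (calsarcin-2) from 0.471 to 3.73 and Ldb3 (ZASP) from 1.08 to 3.71 CPM. In all 8 genes of this group the 2 lowest tumors were those numbered 2, and adjusted p values were 0.715 or more.

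Among calcium handling genes, Atp2a1, the fast-fibre calcium pump of the sarcoplasmic reticulum, was at 59.99, 5.30, 51.02 and 30.7 CPM in saline tumors and at 42.5, 8.35, 19.6 and 26.8 CPM in mAb-DXd/IMQ tumors (log2 fold change -0.60 ± 0.61 (SE), edgeR adjusted p = 0.640). Ryr1, the release channel, was at 36.9, 3.29, 24.5 and 14.7 CPM in saline tumors and at 29.5, 10.6, 25.9 and 24.7 CPM in mAb-DXd/IMQ tumors (log2 fold change 0.19 ± 0.54 (SE), edgeR adjusted p = 0.889). Both genes were lowest in the tumors numbered 2, with the groups overlapping. Cacna1s, the voltage sensor of the T-tubule, ranged from 0.316 to 4.28 CPM, Casq1, which stores calcium in the reticulum, from 0.496 to 3.10 CPM, and Pvalb, the calcium buffer of fast fibres, from 0.474 to 7.86 CPM. All 3 were lowest in saline tumor 2.

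Ckm, muscle creatine kinase, which regenerates ATP during contraction, was at 22.2, 3.02, 27.9 and 10.8 CPM in saline tumors. In mAb-DXd/IMQ tumors Ckm was at 17.02, 2.98, 5.94 and 8.83 CPM (log2 fold change -0.88 ± 0.62 (SE), edgeR adjusted p = 0.478). The tumors numbered 2 were nearly equal and lowest, and the groups overlapped. Mb, the oxygen-binding protein myoglobin, was at 3.73, 0.361, 2.56 and 3.58 CPM in saline tumors and at 5.61, 2.18, 3.98 and 4.30 CPM in mAb-DXd/IMQ tumors (log2 fold change 0.65 ± 0.54 (SE), edgeR adjusted p = 0.559), overlapping between the groups with saline tumor 2 lowest.

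Myog (myogenin) and Myod1 are transcription factors of muscle differentiation. Myog was at 0.770, 0, 0.663 and 0.644 CPM in saline tumors, where tumor 2 had 0 counts, and at 1.61, 1.41, 1.31 and 1.83 CPM in mAb-DXd/IMQ tumors. All 4 treated tumors were above all 4 saline tumors, also above the 3 saline tumors in which Myog was counted. The fitted log2 fold change was 1.55 ± 0.70 (SE, edgeR adjusted p = 0.260) and 1.15 without saline tumor 2 (adjusted p = 0.141), so the difference did not pass the threshold. Over all alternatives the log2 fold change ran from 1.15 to 2.46 (limma-voom) and the adjusted p from 0.134 to 0.405. In mAb-DXd/IMQ tumor 2, low for most members, Myog was at 1.41 CPM, close to the other treated tumors. Myod1 did not pass the low-count filter, with 5, 0, 15 and 1 counts in saline tumors and 0, 7, 35 and 6 counts in mAb-DXd/IMQ tumors, highest in mAb-DXd/IMQ tumor 3.

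**Figure D4:**
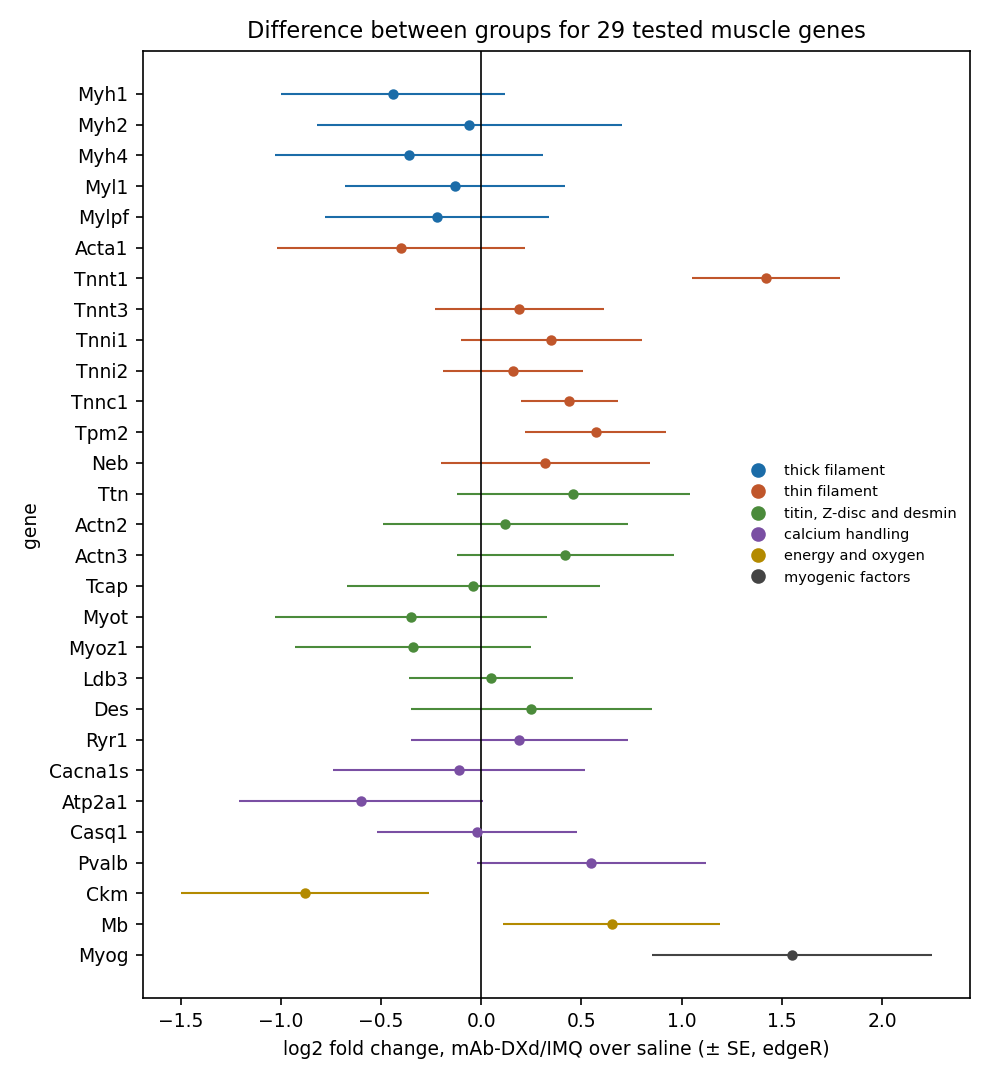
Log2 fold change of mAb-DXd/IMQ over saline tumors (horizontal axis, ± SE from edgeR, 4 tumors per group) for the 29 tested muscle genes, colored by role. Values run from -0.88 for Ckm to 1.55 for Myog, and no gene passed the edgeR thresholds.

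Ratios between muscle genes within a tumor do not depend on the scaling of libraries. Of the 406 pairs of tested members, 65 (16%) had log2 ratios that did not overlap between the groups, against 11.4% of all pairs of the 18511 genes tested and 125 of 3403 pairs (3.67%) of the other skeletal muscle genes. The members' share was above both of these. Pairs that share a gene are not independent, and the shares were not tested against each other, so this is not read as a result about the members. The 7 ratios named here were chosen after the values were seen, and that choice was revised once (Mb over Ckm was turned to Ckm over Mb, and Tnnt1 over Tnnt3 was added), so they are a description with no test. Acta1 over Des, by CPM per kilobase, was 4.48, 5.25, 4.18 and 4.34 in saline tumors and 3.08, 2.31, 2.35 and 2.91 in mAb-DXd/IMQ tumors. Myh4 over Ttn was 66.8, 65, 79 and 58.1 in saline tumors and 55, 27.6, 25.1 and 38.2 in mAb-DXd/IMQ tumors. Atp2a1 over Ryr1 was 10.2, 10.1, 13.1 and 13.1 in saline tumors and 9.04, 4.96, 4.76 and 6.83 in mAb-DXd/IMQ tumors. For each of these 3 ratios every treated tumor was below every saline tumor, and saline tumor 2, with the least muscle RNA, was highest of its group for the first, within its group for the second and lowest of its group for the last. Ckm over Mb was 3.05, 4.29, 5.58 and 1.54 in saline tumors and 1.55, 0.698, 0.765 and 1.05 in mAb-DXd/IMQ tumors, with an overlap between saline tumor 4 and mAb-DXd/IMQ tumor 1. Ckm over Des was also separate between the groups, at 0.267, 0.499, 0.434 and 0.298 in saline tumors and 0.197, 0.136, 0.112 and 0.138 in mAb-DXd/IMQ tumors. Tnni2 over Tnnt3 overlapped, at 1.81, 2.81, 1.65 and 1.93 in saline tumors and 1.01, 2.45, 2.32 and 1.86 in mAb-DXd/IMQ tumors. Tnnt1 over Tnnt3 overlapped too, at 0.00525, 0.0291, 0.00813 and 0.019 in saline tumors and 0.023, 0.0427, 0.0212 and 0.0257 in mAb-DXd/IMQ tumors. Smooth muscle also expresses Des, and its part in the ratios over Des was not tested. Ttn and Ryr1 are far longer than Myh4 and Atp2a1. With a trend by gene length removed in each tumor, the log2 fold changes were -0.31 for Myh4 and 0.72 for Ttn, and -0.64 for Atp2a1 and 0.37 for Ryr1. Without that step the values were -0.36 and 0.46, and -0.60 and 0.19.

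**Figure D5:**
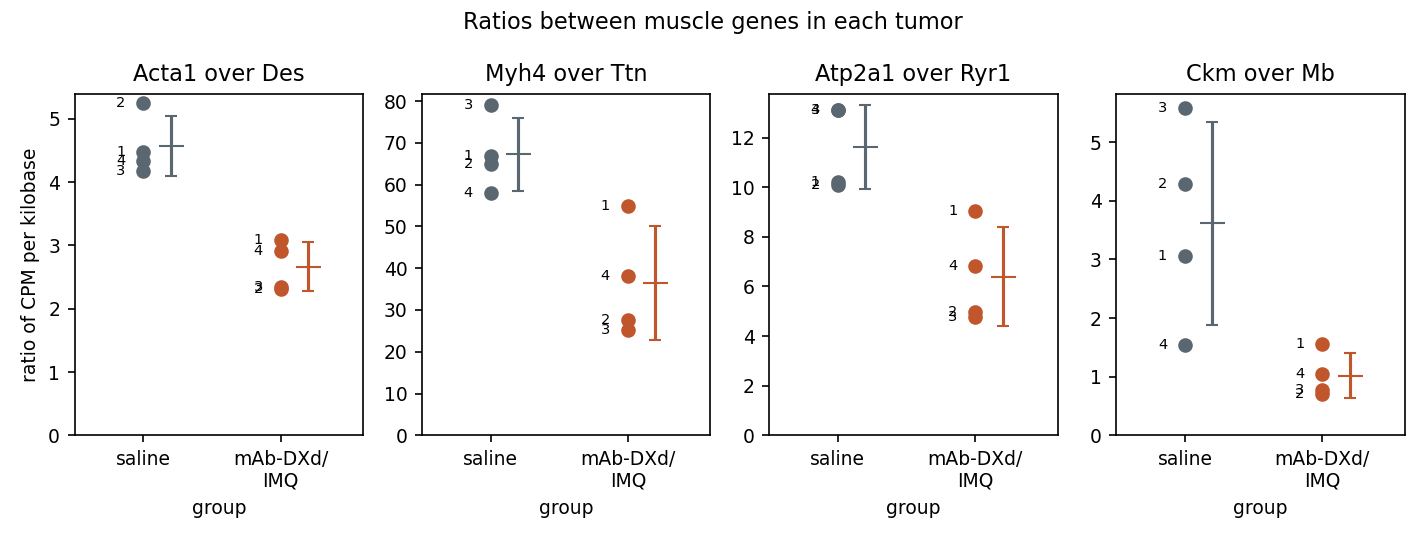
Ratio of CPM per kilobase for 4 pairs of muscle genes (panels) in the 4 saline and 4 mAb-DXd/IMQ tumors, with tumor numbers beside the points and the mean ± SD at the right of each group. The groups do not overlap for Acta1 over Des, Myh4 over Ttn and Atp2a1 over Ryr1, and they overlap slightly for Ckm over Mb.

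Of 90 other genes of skeletal muscle, 83 passed the low-count filter, and 0 were called higher and 0 lower by edgeR, with 5 at an unadjusted p under 0.05 and 0 called by DESeq2 or limma-voom. Their median log2 fold change was 0.06. Their sums were 819, 492, 704 and 603 CPM in saline tumors and 791, 559, 696 and 756 CPM in mAb-DXd/IMQ tumors. The sum was lowest in saline tumor 2 and spanned 1.66-fold, and its most abundant genes did not follow the members. These were Chrnb1 (an acetylcholine receptor subunit, 94.96 to 158 CPM), Flnc (filamin C, 77.5 to 114 CPM), Eno3 (beta-enolase, 48.1 to 111 CPM), Gys1 (glycogen synthase, 43.2 to 70.3 CPM) and Pfkm (phosphofructokinase, 29.4 to 45.2 CPM), and none of the 5 had both tumors numbered 2 as its lowest. For 50 of the 83 the 2 lowest tumors were saline tumor 2 and mAb-DXd/IMQ tumor 2. Mybpc2, the fast myosin-binding protein C, chosen after its values were seen, was at 34.3, 4.15, 30.5 and 14.95 CPM in saline tumors and at 39.1, 7.79, 16.4 and 21.9 CPM in mAb-DXd/IMQ tumors, with both tumors numbered 2 lowest.

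The 5 largest fold changes of that list were in genes under 10 CPM, and none passed the threshold. Chrnd, the delta subunit of the muscle acetylcholine receptor, was at 0.182, 0.0903, 0.0717 and 0.278 CPM in saline tumors and at 0.289, 0.300, 0.459 and 0.478 CPM in mAb-DXd/IMQ tumors (log2 fold change 1.25 ± 0.54 (SE), edgeR adjusted p = 0.240), with every treated tumor above every saline tumor by a small margin. Xirp1, an actin-binding protein of cell junctions in striated muscle, ranged from 0.181 to 2.87 CPM (log2 fold change 1.06 ± 0.58 (SE), edgeR adjusted p = 0.352). The log2 fold changes of Lmod2 (leiomodin 2), Cox7a1 (a subunit of cytochrome oxidase in muscle) and Rtn2 (reticulon 2) were 0.75, 0.67 and 0.67, with adjusted p of 0.635, 0.270 and 0.324.

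Markers of developing or regenerating muscle were mostly low. Of 12 genes, 5 were tested and 0 were called by edgeR or limma-voom, with 1 at an unadjusted p under 0.05, and DESeq2 called 1, Cdh15. Tnnt2, the cardiac and embryonic troponin T, made up 95.9% of the list's sum, and it ranged from 186 to 303 CPM, lowest in saline tumor 2 and highest in mAb-DXd/IMQ tumor 2. Cdh15 (M-cadherin), an adhesion protein of myoblasts and satellite cells chosen after its values were seen, was at 2.57, 0.858, 2.06 and 0.746 CPM in saline tumors and at 6.09, 3.00, 20.2 and 6.27 CPM in mAb-DXd/IMQ tumors (log2 fold change 2.51 ± 0.60 (SE), edgeR adjusted p = 0.061). Every treated tumor was above every saline tumor for Cdh15, and mAb-DXd/IMQ tumor 3, also highest in Myod1, was far above the rest. The satellite cell factors Pax7 and Myf5 had at most 0.218 and 0.0437 CPM, both in mAb-DXd/IMQ tumor 3, from 10 and 2 counts. The list sums, 278, 189, 232 and 238 CPM in saline and 282, 309.5, 265 and 286 CPM in mAb-DXd/IMQ tumors, were lowest in saline tumor 2, as for the members, and highest in mAb-DXd/IMQ tumor 2, unlike the members. Of 8 heart muscle markers, 3 were tested and 0 called by any of the 3 tools (1 at an unadjusted p under 0.05 by edgeR), Nkx2-5 was at 0 in all tumors, and Nppb, the natriuretic peptide gene, was the most abundant at 0.880 to 13.3 CPM.

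Smooth muscle also expresses Des and Tpm2, and the 10 genes of its own list summed to 417, 422, 498 and 487 CPM in saline tumors and to 698, 497, 759 and 529 CPM in mAb-DXd/IMQ tumors. Means were 456 ± 42.5 CPM for saline and 621 ± 128 CPM for treatment (± SD, n = 4 each), the sums of the groups overlapped, none of the 10 genes was at 0, and 0 of 10 were called by edgeR or limma-voom (3 at an unadjusted p under 0.05), while DESeq2 called 1, Tpm1. Of the 10, 8 had a log2 fold change above 0 and 2 below (median 0.49). The largest were Actg2 (1.52, edgeR adjusted p = 0.192) and Cnn1 (1.13, edgeR adjusted p = 0.240). Both were highest in mAb-DXd/IMQ tumor 3 and overlapped between the groups. Tpm1, which other cell types also express, was the most abundant at 53.4% of the sum, with 209, 201, 259.9 and 248 CPM in saline and 408, 272, 399 and 302 CPM in mAb-DXd/IMQ tumors (log2 fold change 0.59 ± 0.16 (SE), edgeR adjusted p = 0.082), with no overlap between the groups. Saline tumors 1 and 2 were nearly equal and lowest for this list, while saline tumor 1 was highest for the members, and mAb-DXd/IMQ tumor 2 was lowest of its group for both. Without Des and Tpm2 the remaining 32 members summed to 735, 87.2, 583 and 366 CPM in saline tumors and 577, 181, 401 and 478 CPM in mAb-DXd/IMQ tumors, with the same tumors low.

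Genes of tissues that lie beside muscle under the skin were also measured, and for these and the lists after them 0 were called by edgeR, DESeq2 or limma-voom. At an unadjusted edgeR p under 0.05 there were 1 adipocyte, 0 epidermal, 2 nerve, 2 red blood cell, 0 epithelial and 1 fibroblast genes. Adipocyte genes summed to 117, 94.7, 99.4 and 106 CPM in saline and 95.8, 94.8, 68.3 and 79.2 CPM in mAb-DXd/IMQ tumors, led by Pnpla2, a lipase of many cell types, at 73.7% of the sum, with 9 of 10 tested and 0 called. All 9 tested had a log2 fold change below 0 (median -0.58). Adipoq, Plin1, Cidec and Lep had 0 counts in saline tumor 2, and no gene of the list was at 0 in all 8 tumors. The defining adipocyte genes Adipoq and Plin1 reached at most 1.44 and 0.507 CPM. Both were lowest in saline tumor 2, as were 7 of the 10 adipocyte genes. Among these 7 Lep was tied, also at 0 in saline tumor 4 and mAb-DXd/IMQ tumors 1 and 3. Brown adipocyte genes were at most 0.770 CPM in sum, led by Elovl3, and none of the 3 was tested. Epidermal genes summed to 223, 37.5, 153 and 105 CPM in saline and 220.2, 561, 226 and 107 CPM in mAb-DXd/IMQ tumors, led by Krt14. Of the 11 genes 7 were tested and 0 called, and all 7 were above 0 in log2 fold change (median 1.04). That direction rested largely on mAb-DXd/IMQ tumor 2. In the other treated tumors Krt5 and Lor reached at most 1.05 and 0.328 CPM, against saline means of 7.27 and 0.826 CPM. Without that tumor the treated mean CPM was below the saline mean for Krt5, Krt10, Krt15, Lor and Sbsn. It stayed above the saline mean for Krt14 and Ivl. The epidermal sum was lowest in saline tumor 2 too, while it was highest in mAb-DXd/IMQ tumor 2. This list and the members shared the first of these and differed in the second. Krt14 made up 76.7% of the epidermal sum, and without Krt14 the sum was lowest in mAb-DXd/IMQ tumor 3. Of the 7 tested epidermal genes, 3 were lowest in saline tumor 2. The part of fat or skin carried with the tumor in the muscle levels was not tested.

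The summed level of peripheral nerve genes was steady, from 80.9 to 109 CPM, with 5 of 7 tested and 0 called. Cnp was the most abundant, at 49.2% of the sum. Single nerve genes were less steady, with log2 fold changes from -0.30 to 2.54 among those tested. Red blood cell genes summed to 17.4, 53.2, 22.97 and 40.00 CPM in saline and 79.6, 36.2, 61.2 and 47.02 CPM in mAb-DXd/IMQ tumors, led by Hbb-bs, with 0 of 5 called, and saline tumor 1, highest for skeletal muscle, was lowest here. Fibroblast genes, led by Col1a1, summed to between 2795 and 7501 CPM with 0 of 6 called. The 8 epithelial genes of the 4T1 list (Epcam, Cdh1, keratins and claudins) were all detected, none at 0, and summed to 2866, 2105, 2908 and 2638 CPM in saline and 4154, 3197, 2398 and 2448 CPM in mAb-DXd/IMQ tumors, led by Krt18, with 0 of 8 called. How much of this RNA came from the carcinoma and how much from host epithelium was not tested. Muscle members stood at 536 CPM beside 2629 CPM for these epithelial genes on average in saline tumors, as sums over lists of different size. The epithelial sum was also lowest in saline tumor 2, as were 4 of its 8 genes. Over all the comparison lists, the groups did not overlap for Chrnd, Cdh15, Tpm1 and Hbb-bt, higher in mAb-DXd/IMQ tumors, and for Phka1, Pfkm, Pnpla2, Mbp and Pdgfra, lower in them, each named here after its values were seen. Of all tested genes, 5.97% were fully separate and higher and 7.10% fully separate and lower. In the largest list, the other skeletal muscle genes, 1 of 83 was higher and 2 lower. These names are therefore a description and not a result about the lists. Of the lower genes Pdgfra had the smallest adjusted p (log2 fold change -0.48 ± 0.12 (SE), edgeR adjusted p = 0.068).

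Outside all lists, 14512 tested genes with a mean of at least 1 CPM were ranked by how closely their log2 CPM followed the log2 summed level of the members over the 8 tumors. Among the closest were Eef1a2, Myo18b, Pdk4, Cap2, Serpina3n, Ndrg2, Alpk3, 3425401B19Rik and Trim34a, with Pearson r from 0.953 to 0.986. As they were chosen for this likeness, no p is given. Eef1a2, the translation elongation factor form of muscle and neurons, was at 13.4, 0.654, 12.1 and 7.56 CPM in saline tumors and at 14.5, 3.19, 9.46 and 10.1 CPM in mAb-DXd/IMQ tumors (r = 0.986, Spearman's rho = 0.98, and r = 0.94 over the 6 tumors left without the tumors numbered 2). Myo18b, an unconventional myosin of striated muscle, Pdk4, a kinase that restrains pyruvate oxidation, and Alpk3, a kinase of striated muscle, were among the others. Without the tumors numbered 2, r stayed at 0.95 for Ndrg2 and was 0.63 for Alpk3 and 0.67 for 3425401B19Rik, so for these last genes the likeness rested more on the tumors numbered 2. Trim34a varied least of those named, from 5.82 to 10.7 CPM.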

How the data were processed

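RNA-seq counts of 4 saline and 4 mAb-DXd/IMQ tumors were used as the authors deposited them, as whole read counts per gene without normalization. The submitters' processing notes name HISAT2, HISAT, TopHat2 and the build mm39, but 53499 of the 54409 gene IDs shared with the GENCODE annotation of GRCm38 carry its coordinates, including 33 of 34 members. The counting program and strandedness are not given in the sources used here. The members and lists were chosen with earlier results of these data known.

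Genes were kept by filterByExpr (minimum count 10, minimum total 15) and tested with edgeR 4.0.16 (quasi-likelihood F-test, TMM, no covariate) in R 4.3.3 across all genes, then adjusted by Benjamini-Hochberg. Standard errors were taken from the coefficient and its F statistic. CPM per kilobase used the deposited gene lengths. Named genes were the 2 members of each role with the highest CPM, Des, Tpm2, Myod1 and Myog, the 5 most abundant and 5 with the largest fold changes of the other muscle genes, the most abundant of each other list and genes among the 10 closest followers. Others are named as chosen later or account for members. The symbol Hjv was matched as Hfe2. Myosin windows came from GENCODE transcripts. Tumors of the same group were not duplicates of each other (chi-square per degree of freedom of 33.72 or more). The edgeR p-values set the difference between groups against the spread between these tumors, estimated with information from all genes. Alternatives used limma 3.58.1 and DESeq2 1.42.0, other scalings and filters, a robust fit, length offsets (splines, 5 degrees of freedom), a replicate block, muscle level as a covariate and leaving out each tumor.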

Additional observations from a re-analysis of the deposited data

Results flagged for a closer look

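Of 96 groups of 4 tumors examined (each tested member, each summed list or role and the total counts), 3 held a tumor whose gap to its nearest neighbour, as a share of the group's range, was above Dixon's critical value for 4 samples, and chance alone passes it in about 1 in 20 groups. Actn3 in mAb-DXd/IMQ tumors had a gap of 0.938 of the range, with tumor 2 at 3.62 CPM and the others at 15.6, 15.2 and 14.9 CPM. Myog in saline tumors had a gap of 0.836, with 0 in tumor 2 and 0.770, 0.663 and 0.644 CPM in the others. The brown adipocyte sum in mAb-DXd/IMQ tumors had a gap of 0.903, with 0.578 CPM in tumor 2 and at most 0.0562 CPM in the others.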

How the results depend on the processing

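The counts of 0 muscle genes called higher and 0 lower held under every alternative except the DESeq2 Wald test, which called 1 higher (Tnnt1). The count of all genes past the thresholds, 197, became 358 with no filter on low counts, 787 with DESeq2, 122 with gene length offsets and 29 without both tumors numbered 2 (an alternative added after the values were seen). Leaving out each tumor in turn gave 10 to 203 genes: 111 without saline tumor 2, 10 without saline tumor 3, 11 without saline tumor 4, and 76, 88 and 12 without mAb-DXd/IMQ tumors 2, 3 and 4. The replicate block, alone or with length offsets, gave 14 genes. The deviations of same-numbered tumors from their group means correlated at -0.17, -0.05, 0.08 and -0.07, so the numbers were not read as pairs. The median log2 fold change of the members, 0.12, ran from -0.18 to 0.44 and the log2 ratio of muscle level from -0.36 to 0.33 when each tumor was left out (the median was 0.34 with limma-voom and 0.35 with the replicate block), and the p for total counts from 0.0857 to 0.343 (0.5 with the replicate block). With the replicate block 3 of the 5 thick filament genes were positive, and 2 with length offsets added. Mylpf turned from -0.22 to 0.09 with limma-voom, 0.12 with the replicate block and 0.01 with the replicate block and length offsets, and the cause was not tested. When each tumor was left out, signs also turned for Acta1 (-0.78 to 0.04), Des (-0.12 to 0.66), Myh4 (-0.78 to 0.09), Mylpf (-0.59 to 0.04), Ryr1 (-0.16 to 0.67) and Tnni2 (-0.10 to 0.36), none of them called. With the summed muscle level as a covariate, also added after the values were seen and circular for the members, 225 genes and 0 muscle genes were called. The muscle level does not depend on the test, dispersion, fold limit or block.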
